A study of Homo sapiens with 35 samples.

Results

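Human embryonic stem cells given Activin A together with the GSK3 inhibitor CHIR99021 (CHIR) for 6 h were compared with all cells of the same library series that received CHIR without Activin A. The comparison set 2 Activin libraries against a pool of 6 Activin-free libraries, which makes 8 of the 35 samples of the series. A gene was kept when both Activin libraries lay above, or both lay below, the range of all 6 others in counts per M (mega) counts (CPM, scaled by TMM). Of 16103 genes in the deposited table, 2268 lay outside that range, and 2198 of them passed the filter on low counts that left 14654 genes for testing. Within these, 405 genes also passed edgeR's quasi-likelihood F-test (two-sided, Benjamini-Hochberg adjusted p under 0.05 over all genes tested). The range and the test read the same 8 libraries, so the range is a description of the called genes and no second test of them.

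All cells were of H1, an established human embryonic stem cell line, grown as a flat layer on a Geltrex-coated surface in RPMI with a little serum and ITS. Definitive endoderm, the germ layer of gut, liver and pancreas, was being induced, and the RNA of the whole unsorted dish was extracted with Trizol. The groups at 6 h were AA+CHIR (100 ng/ml Activin A with 3 µM CHIR, per the labels' protocol), CHIR alone, BRD+CHIR, JNJ+CHIR and untreated cells, with 2 libraries each. BRD and JNJ are compounds known here by code name only, and the labels do not give their doses. The 3 Activin-free CHIR arms were pooled, while the untreated libraries lack CHIR and are shown only beside the results. Nothing in the labels tells whether the 2 replicates of a group came from separate cultures, so p-values measure only the spread between these libraries, which may be technical. In RNA of a whole dish, fewer cells expressing a gene and less RNA of it per cell cannot be told apart.

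Activin A binds the receptors that also serve Nodal, and the activated receptors phosphorylate SMAD2 and SMAD3. These join SMAD4, enter the nucleus and act at DNA with partners such as FOXH1 and EOMES. In the embryo this pathway and Wnt together induce the primitive streak, from which mesoderm and definitive endoderm arise, and the pathway induces its own ligand and its own secreted inhibitors. In undifferentiated human embryonic stem cells the same pathway supports expression of the pluripotency factor NANOG.

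The Activin libraries held 10.8 and 11.6 M counts, the Activin-free libraries 12.3 to 17.2 M and the untreated ones 11.8 to 12.4 M, so the Activin group was the shallowest. The cells were not yet endoderm by their markers. Of the endoderm markers SOX17, FOXA2, CXCR4, GATA4 and GATA6, only 1 passed the filter. Their summed level was 1.42 to 1.55 CPM with Activin and 0.611 to 1.42 CPM without, and SOX17 was at 0 in all 8 libraries. The stem cell markers POU5F1, SOX2 and NANOG summed to 1110.1 to 1115 CPM with Activin and 1048 to 1135 CPM without. Most of this sum was POU5F1, at 828 to 829 CPM with Activin and 749 to 822 CPM without. The sum hides opposite moves of SOX2 (82.8 to 83.9 against 171 to 199 CPM) and NANOG (199.7 to 202 against 125 to 134 CPM). Mesoderm markers summed to 51.4 to 52.0 CPM with Activin and 45.5 to 63.1 CPM without, with MESP1 at 0 in all 8 libraries and FOXF1 not analysed here. Most of this sum was KDR, at 46.4 to 47.1 CPM with Activin and 41.5 to 59.3 CPM without. TBX6 stood at 3.7 to 5.3 CPM against 2.05 to 3.22 CPM, and PDGFRA at 0.378 to 0.602 CPM against 0.305 to 3.32 CPM. The neural markers SIX3 and LHX2 summed to 0 CPM in both Activin libraries and 0.0761 to 0.170 CPM in the Activin-free ones, with PAX6, SOX1 and SIX6 not analysed here. Extraembryonic and amnion markers summed to 6.45 to 6.53 CPM with Activin and 3.58 to 8.18 CPM without. None of the tested endoderm, mesoderm or extraembryonic markers passed the test.

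Called rises were on median larger than called falls. Of the genes tested, 223 (1.52%) were called higher and 183 (1.25%) lower, a split that was 227 to 116 with limma-voom and 276 to 279 with DESeq2. By range alone, 1017 genes (6.94%) lay above and 1181 (8.06%) below all 6 Activin-free libraries. Of the called genes, 222 of those higher and all 183 of those lower also lay outside the range, the exception being NANOGP8, a processed copy of NANOG. The 222 higher genes had a median log2 difference of 0.69, with 68 at least 2-fold and 22 at least 4-fold higher. The 183 lower genes had a median log2 difference of -0.57, with 36 at least 2-fold and 10 at least 4-fold lower. These counts set no further floor on level and keep entries with shared reads. SMIM11B and TGIF2-RAB5IF, whose reads are shared with other genes, are among the 10. GPR50, at a mean of 3.07 CPM with Activin and 0.435 CPM without, is among the 22. Over all genes tested the median log2 difference was -0.01. The number of calls rested on 1 library more than on any other: without Activin replicate 1 it was 166, of which 152 were shared with the full comparison, and over all 8 such omissions it ranged from 166 to 490. The gene that met the range rule by the smallest margin, less than the rounding here, was FGF13 (48.1 and 41.6 CPM with Activin, 48.1 to 59 CPM without). The gene that came nearest without meeting it was BLOC1S5-TXNDC5, at 0 CPM in both Activin libraries and 0 to 29 CPM in the others, so that it tied with the lower end of the range.

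**Figure D1:**
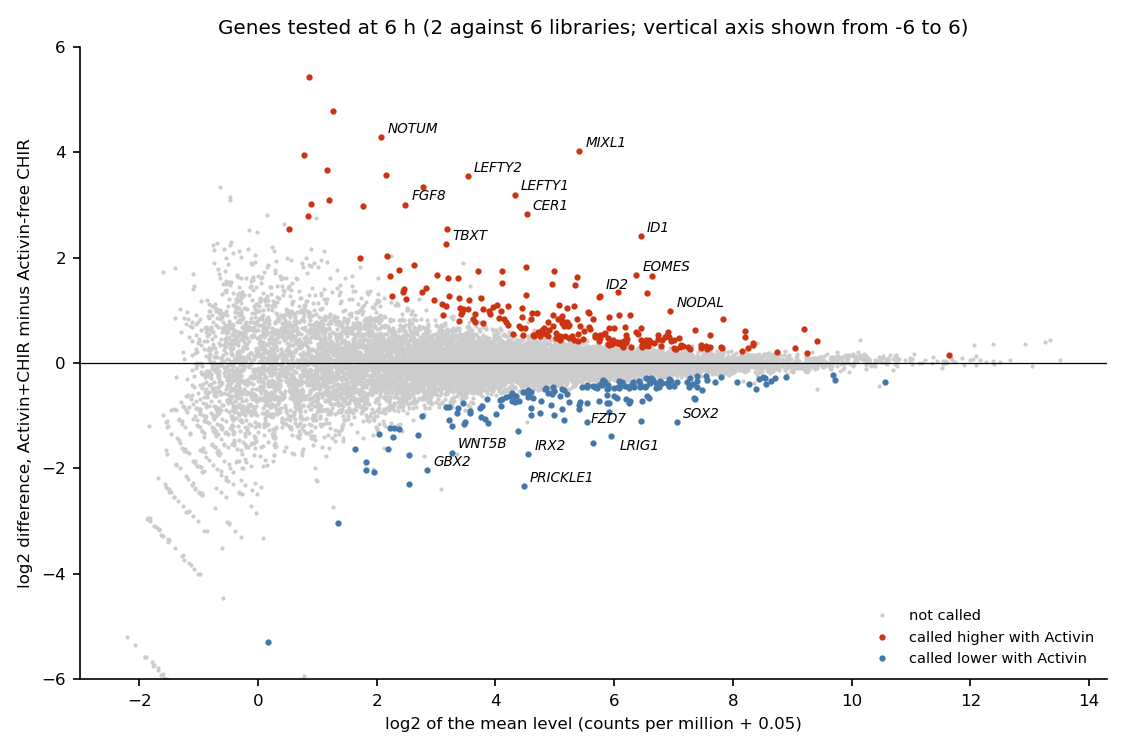
Each point is 1 of the 14654 genes tested at 6 h, with its log2 mean level in CPM on the horizontal axis and the log2 difference, Activin minus Activin-free, on the vertical axis. Colour marks the 223 genes called higher and the 183 called lower, which lie mostly within a few log2 units of 0, and 33 genes (4 of them called) lie beyond the vertical axis and are not shown.

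The 4 genes taken as markers of the Activin response, MIXL1, LEFTY1, CER1 and ID1, were higher in both Activin libraries than in any other. MIXL1 encodes a homeobox factor of the primitive streak and lies on chromosome 1 (GRCh38 chr1:226223618-226227054). It stood at 81.1 and 79.5 CPM in the Activin libraries, at 3.05, 4.78 and 6.44 CPM (lowest, median, highest) in the Activin-free ones and at 1.59 and 3.12 CPM in untreated cells. The groups were far apart, with a log2 difference of 4.03 ± 0.17 (SE; edgeR adjusted p 6.08e-12). CER1 encodes Cerberus, a secreted antagonist of Nodal, and lies at chr9:14719724-14722717 on the minus strand. Its level was 39.9 and 40.8 CPM with Activin, 3.92, 6.22 and 6.85 CPM without, and 3.66 and 2.77 CPM untreated, a log2 difference of 2.83 ± 0.19 (SE; edgeR adjusted p 7.20e-09). LEFTY1, a secreted inhibitor that blocks Nodal at its receptors, stood at 42.2 and 30.1 CPM with Activin, 3.32, 3.77 and 5.15 CPM without and 6.75 and 5.11 CPM untreated. Activin replicate 1 was the higher of the pair, yet both lay above all other libraries, and the log2 difference was 3.2 ± 0.18 (SE; edgeR adjusted p 1.14e-09). ID1, a helix-loop-helix inhibitor best known as a target of BMP signals, stood at 166 and 128 CPM with Activin, 25, 27 and 31.2 CPM without and 35.4 and 37.2 CPM untreated. For ID1 the Activin-free CHIR libraries all lay below the untreated ones, and the log2 difference between Activin and Activin-free cells was 2.41 ± 0.10 (SE; edgeR adjusted p 6.08e-12).

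**Figure D2:**
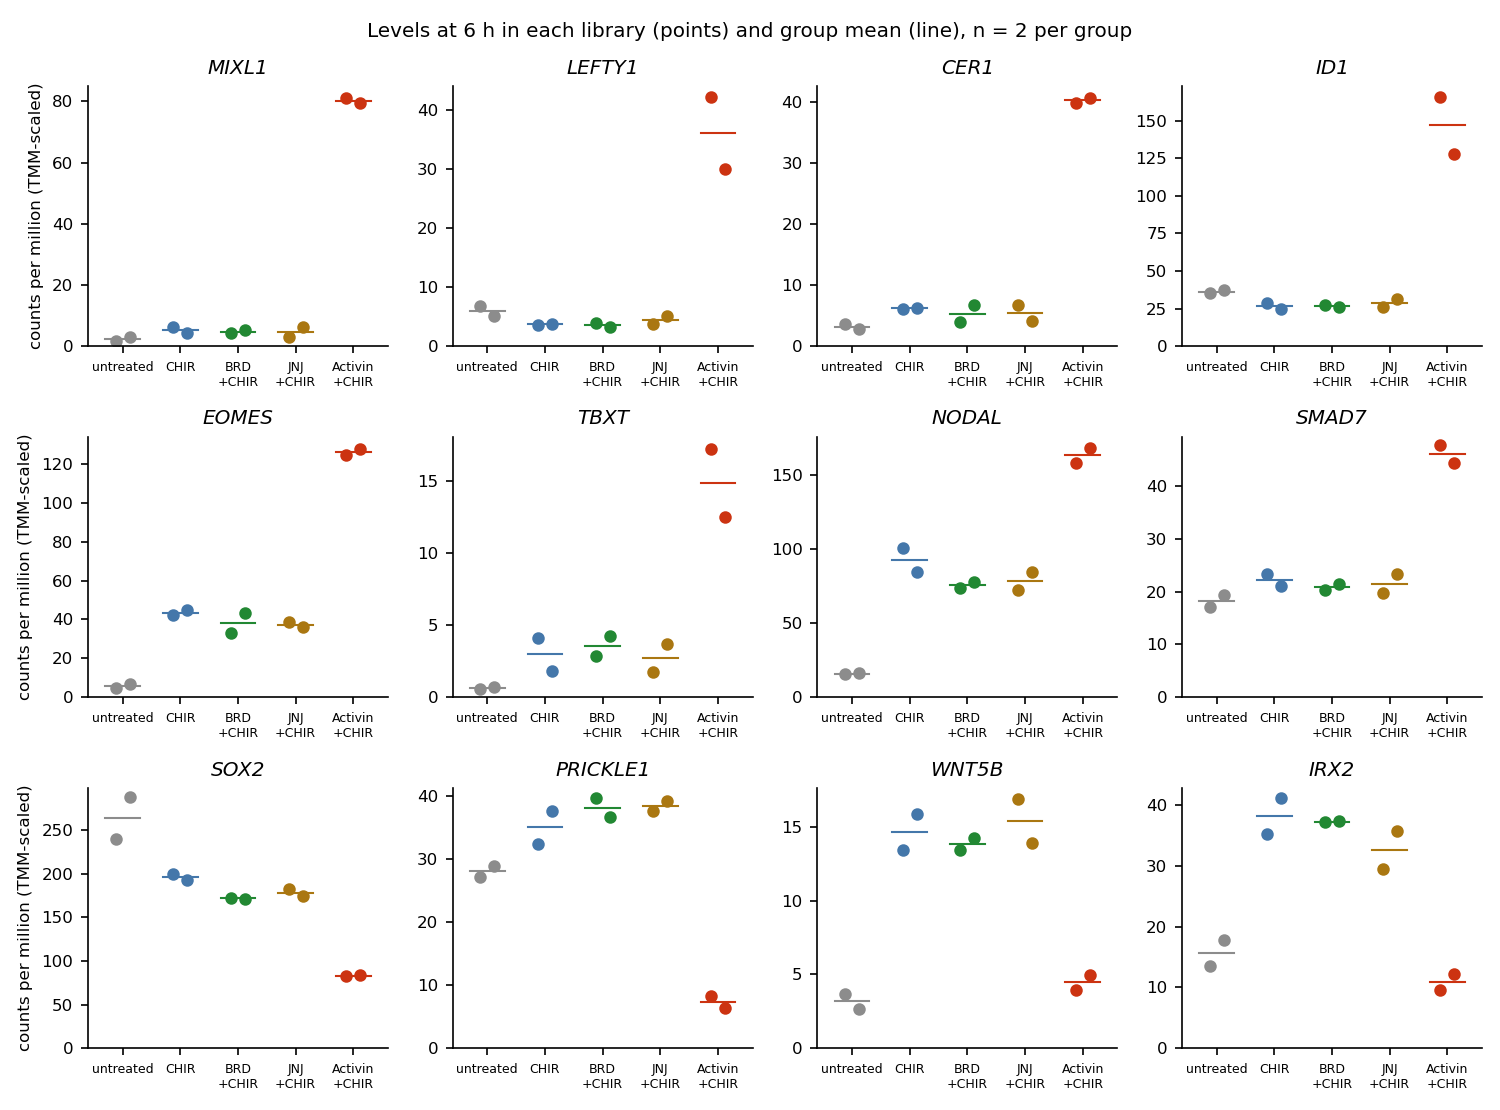
Levels of 12 genes at 6 h in CPM (linear axes from 0), with 1 point per library and a line at the mean of each group of 2 libraries. MIXL1, LEFTY1, CER1, ID1, EOMES, TBXT, NODAL and SMAD7 lie higher in both AA+CHIR libraries than in the 6 libraries of CHIR, BRD+CHIR and JNJ+CHIR, and SOX2, PRICKLE1, WNT5B and IRX2 lie lower.

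The stretches upstream of MIXL1 and CER1 are shown because these 2 marker genes rose together. They were also chosen because both hold letters known from Activin response elements, and that of MIXL1 alone holds letters known from Wnt response elements. Both come from RefSeq (GRCh38.p14), written 5′ to 3′ on the strand of the gene. The MIXL1 stretch is 204 bases at chr1:226223414-226223617 on the plus strand and ends 46 bases before the RefSeq start. Its capitals mark a FOXH1 motif (AATCCACA, here on the opposite strand, 249 to 242 bases before the start) and a TCF and LEF motif (CTTTGAT, 76 to 70 bases before the start).
MIXL1: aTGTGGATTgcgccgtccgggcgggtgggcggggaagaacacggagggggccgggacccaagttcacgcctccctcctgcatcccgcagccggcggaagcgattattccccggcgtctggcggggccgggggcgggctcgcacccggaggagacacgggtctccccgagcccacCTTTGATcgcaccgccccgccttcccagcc
The CER1 stretch is 250 bases at chr9:14722734-14722983 on the minus strand. Its capitals mark a SMAD motif (CAGACA, 218 to 213 bases before the start) and a FOXH1 variant (AATACACA, 154 to 147 bases before the start).
CER1: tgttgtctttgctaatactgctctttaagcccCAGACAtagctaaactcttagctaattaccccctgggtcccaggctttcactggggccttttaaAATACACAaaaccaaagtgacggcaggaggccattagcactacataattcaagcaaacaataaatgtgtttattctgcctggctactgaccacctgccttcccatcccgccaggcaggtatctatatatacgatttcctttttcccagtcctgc
LEFTY1, LEFTY2, NOTUM and FGF8 were not matched in the promoter table. The marker ID1 was matched, but it is not among the called higher genes that hold the FOXH1, FOXH1 variant or TCF and LEF motif.

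These letters were counted on both strands over the 250 bases before the start in 11517 promoters of tested genes, 170 promoters of called higher genes and 132 of called lower genes. The FOXH1 motif AATCCACA was in 35 of all promoters (0.304%), in 3 of the higher set (1.76%; MIXL1, CREB5 and GPR50) and in 0 of the lower set. The variant AATACACA was in 42 of all (0.365%), in 2 of the higher set (1.18%; CER1 and ZNF587) and in 0 of the lower set. The TCF and LEF motif CTTTGAT was in 1.3% of all, 1.76% of the higher and 1.52% of the lower set. The SMAD motif CAGACA, which is short and frequent, was in 10.1% of all, 11.8% of the higher and 12.1% of the lower set. The T-box motif AGGTGTGA was in 0.59% of all promoters, in 0 of the higher and in 3 of the lower set (2.27%). The matches marked in capitals do not overlap, and a match is a description of the sequence, not a binding site.

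Genes for the Nodal and Activin ligands and their secreted inhibitors moved mostly up. Of 9 tested members, 5 were called higher (LEFTY1, LEFTY2, CER1, NODAL and GDF3) and 1 lower (FST). Their median log2 difference was 0.96 against -0.01 over all genes. The shares called among all genes tested were 1.52% higher and 1.25% lower, and the counts of this and each later list stand beside these shares. The lists were chosen with earlier results of these data known, so such counts are a description and no test against these shares. LEFTY2, the neighbour and close relative of LEFTY1, stood at 20.1 and 22.5 CPM with Activin and 0.763, 1.51 and 3.2 CPM without, a log2 difference of 3.55 ± 0.32 (SE; edgeR adjusted p 5.24e-07). Since the coding sequences of LEFTY1 and LEFTY2 are nearly identical, the split of reads between them is uncertain. Their sum was 62.2 and 52.7 CPM with Activin and 4.5 to 7 CPM without, so the rise holds for the pair together.

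NODAL, the embryonic ligand of the pathway, stood at 158 and 168 CPM with Activin, 72.1, 81.1 and 101 CPM without and 15.4 and 16.1 CPM untreated. The 3 states formed separate steps, with the untreated libraries lowest and both Activin libraries highest, and the log2 difference between Activin and Activin-free cells was 0.99 ± 0.10 (SE; edgeR adjusted p 1.49e-06). GDF3, another ligand of the family, was at 15.5 and 13.1 CPM with Activin and 5.85, 6.61 and 10.8 CPM without (log2 difference 0.96 ± 0.24 SE, adjusted p 0.0315). FST, follistatin, which binds and neutralises Activin, was the member that fell, from 194, 208 and 237 CPM without Activin to 165 and 131 CPM with it (log2 difference -0.51 ± 0.090 SE, adjusted p 0.00206). Both levels of FST were far above the 24.1 and 29.5 CPM of untreated cells. Among members that did not pass the test, the co-receptor TDGF1 had a log2 difference of -0.18 ± 0.056 (SE). The call of FST was lost without Activin replicate 2 (log2 difference -0.35), and that of GDF3 without any 1 of 6 of the 8 libraries, among them Activin replicate 1 (0.84) and Activin replicate 2 (1.08). Values given after a lost call are, throughout, log2 differences without the library named.

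LEFTY1, LEFTY2 and MIXL1 lie in 1 stretch of chromosome 1. In GENCODE release 29 (GRCh38), LEFTY1 is at chr1:225886282-225911382 and LEFTY2 at chr1:225936598-225941489, with 25.2 kb between them, and MIXL1 follows at chr1:226223618-226227054.

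Few genes for receptors and signal carriers passed the test. Of 12 tested members, 1 was called higher, 0 lower and 11 not, with a median log2 difference of -0.12. The 1 called was SMAD3, a carrier of the signal, at 24 and 22.7 CPM with Activin and 14, 16.1 and 17.4 CPM without (log2 difference 0.55 ± 0.14 SE, adjusted p 0.042). Its call was close to the threshold and held under 6 of 18 alternatives, with log2 differences from 0.51 to 0.62. It was lost without either Activin replicate (0.51 and 0.59), without either CHIR or BRD+CHIR replicate, and without JNJ+CHIR replicate 2. The receptor genes ACVR2B (-0.2 ± 0.071 SE) and TGFBR1 (-0.2 ± 0.086 SE) and the partner FOXH1 (-0.1 ± 0.13 SE) did not pass.

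Inhibitors that act inside the cell or at its surface were raised in part. Of 10 tested feedback inhibitors, 4 were called higher (SMAD7, PMEPA1, BAMBI and SKIL) and 0 lower, with a median log2 difference of 0.13. SMAD7, which blocks the receptors from within, stood at 47.7 and 44.3 CPM with Activin, 19.6, 21.2 and 23.4 CPM without and 17.2 and 19.4 CPM untreated. Both Activin libraries were well clear of the others, with a log2 difference of 1.1 ± 0.12 (SE; edgeR adjusted p 5.00e-06). PMEPA1, a membrane protein that holds back SMADs, was at 66 and 58.8 CPM against 26.1, 30.4 and 39.8 CPM (log2 difference 0.97 ± 0.13 SE, adjusted p 7.84e-05). BAMBI, a receptor without kinase, was at 26.8 and 31.7 CPM with Activin, 12.3, 14.6 and 15.9 CPM without and 25 and 22.9 CPM untreated, so Activin-free CHIR cells lay below both other states (log2 difference 1.04 ± 0.15 SE, adjusted p 1.98e-04). SKIL, a nuclear repressor of SMADs, moved little, from 253, 261 and 279 CPM to 294 and 324 CPM (log2 difference 0.23 ± 0.061 SE, adjusted p 0.0489). Its call held under 6 of 18 alternatives and was lost without either Activin replicate (0.3 and 0.16), either CHIR replicate, BRD+CHIR replicate 1 or JNJ+CHIR replicate 2. SMAD6, the inhibitor tied to BMP signals, had a log2 difference of 1.76 ± 0.58 (SE; edgeR adjusted p 0.137) and did not pass.

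Of 11 tested primitive streak and mesendoderm factors, 3 were called higher (MIXL1, EOMES and TBXT) and 1 lower, with a median log2 difference of 0.75. EOMES, a T-box factor needed for endoderm, stood at 125 and 128 CPM with Activin, 33.1, 40.4 and 44.9 CPM without and 5.01 and 7.01 CPM untreated. It was already raised in CHIR cells and stood higher again with Activin (log2 difference 1.67 ± 0.10 SE, adjusted p 1.35e-09). TBXT, or Brachyury, a T-box factor of the streak and early mesoderm, was at 17.2 and 12.5 CPM, 1.75, 3.3 and 4.27 CPM and 0.556 and 0.693 CPM in the same order (log2 difference 2.26 ± 0.31 SE, adjusted p 1.24e-04). GSC, the Goosecoid factor of the anterior streak, had a log2 difference of 2.2 ± 0.79 (SE; edgeR adjusted p 0.183) at mean levels of 1.86 and 0.387 CPM and did not pass.

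**Figure D3:**
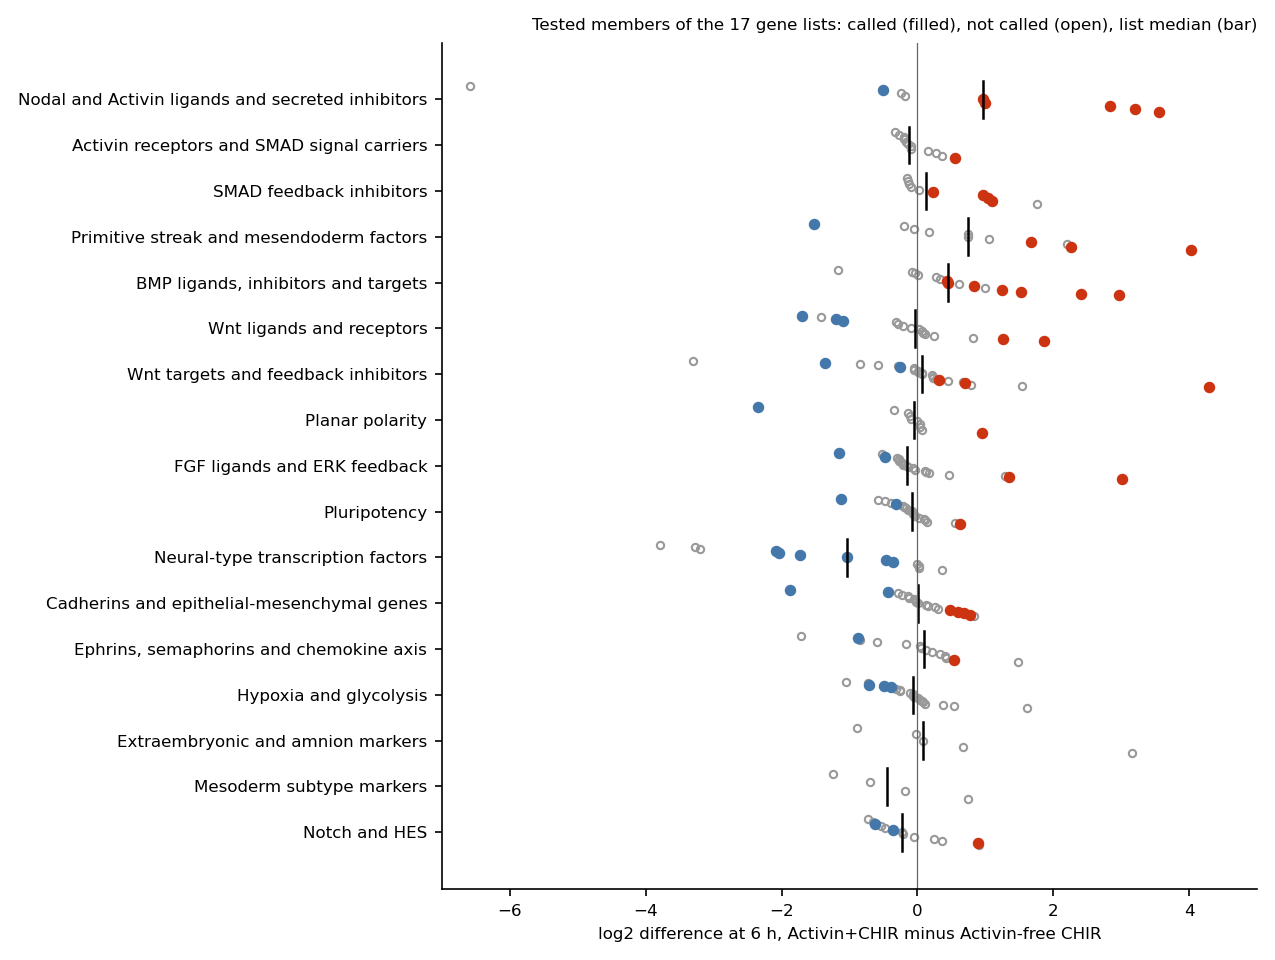
Log2 differences at 6 h (Activin minus Activin-free) of the tested members of the 17 gene lists, 1 row per list, with filled points for called genes, open points for those not called and a bar at the median. Members of the BMP list lie mostly to the right of 0, with 7 of 15 called higher, and those of the neural-type list to the left, with 6 of 13 called lower. The lists were chosen with earlier results of these data known, so these counts are a description.

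Of 15 tested ligands, inhibitors, receptors, signal carriers and targets of the BMP pathway, 7 were called higher and 0 lower. The 7 were ID1, ID2, ID3, ID4, MSX2, BMPR1A and BMPR2, and the median log2 difference of the list was 0.44. The ligands BMP2 (-1.17 ± 0.57 SE), BMP4 (-0.03 ± 0.46 SE) and BMP7 (0.33 ± 0.17 SE) did not pass the test. Neither did the inhibitors GREM1 (0.61 ± 0.28 SE) and FSTL1 (-0.07 ± 0.063 SE). All 4 ID genes encode helix-loop-helix inhibitors that BMP signals are known to induce. ID2 stood at 81.3 and 70 CPM with Activin and 26.6, 32.5 and 35.4 CPM without (log2 difference 1.25 ± 0.11 SE, adjusted p 5.18e-07). ID4 was at 26.6 and 24.8 CPM, 7.17, 8.72 and 10.4 CPM and, untreated, 14.4 and 14.5 CPM, so that, as for ID1, CHIR cells without Activin were lowest (log2 difference 1.52 ± 0.17 SE, adjusted p 1.04e-05). ID3 differed less (log2 difference 0.44 ± 0.076 SE, adjusted p 0.0017).

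MSX2, a homeobox target of BMP, was at 5.87 and 6.11 CPM with Activin and 0, 0.763 and 1.25 CPM without (log2 difference 2.97 ± 0.61 SE, adjusted p 0.00736). Its levels in the Activin-free libraries are near the detection limit, and its call was lost without either Activin replicate (3 and 2.95). The type II receptor BMPR2 rose by 0.83 ± 0.12 (SE) and the type I receptor BMPR1A by 0.44 ± 0.073 (SE) on the log2 scale, the call of the latter being lost without Activin replicate 1 (0.37).

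Wnt ligands and receptors changed in both directions under the same CHIR exposure. Of 16 tested, 2 were called higher (WNT3 and FZD5) and 3 lower (WNT5B, FZD7 and FZD2), with a median log2 difference of -0.04. WNT3, the ligand needed for streak formation in mice, stood at 9.74 and 9.46 CPM with Activin, 1.36, 2.65 and 4.12 CPM without and 0.874 and 0.52 CPM untreated (log2 difference 1.86 ± 0.37 SE, adjusted p 0.00549). WNT5B, a ligand known from cell movement, was at 3.97 and 4.99 CPM with Activin, 13.4, 14.1 and 16.9 CPM without and 3.66 and 2.68 CPM untreated (log2 difference -1.7 ± 0.21 SE, adjusted p 4.77e-05). CHIR cells thus held more WNT5B than untreated cells, and Activin cells were close to the untreated level.

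Among the Frizzled receptors, FZD5 was higher with Activin, at 77.6 and 75.8 CPM against 24.7, 31.9 and 38.8 CPM (log2 difference 1.26 ± 0.12 SE, adjusted p 1.95e-06). FZD7 was lower, at 47.2 and 64.6 CPM against 111, 121 and 125 CPM (log2 difference -1.09 ± 0.10 SE, adjusted p 6.45e-07), with untreated cells at 112 and 105 CPM. FZD2 was lower as well (log2 difference -1.19 ± 0.26 SE, adjusted p 0.0123). The call of WNT3 was lost without either Activin replicate (1.84 and 1.88) and that of FZD2 without Activin replicate 1 (-0.93).

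Wnt targets and feedback inhibitors mostly did not pass the test. Of 23 tested, 3 were called higher (NOTUM, NKD1 and MYC) and 2 lower (SP8 and SFRP1), with a median log2 difference of 0.07. NOTUM, a secreted enzyme that inactivates Wnt proteins, had the highest log2 difference of the genes that the naming rule picks. It stood at 5.77 and 10.2 CPM with Activin, 0.227, 0.318 and 0.84 CPM without and 0.238 and 0.173 CPM untreated, so it was close to absent except in the Activin libraries (log2 difference 4.29 ± 0.51 SE, adjusted p 2.64e-05). NKD1, an inhibitor inside the cell, was at 39.3 and 49.5 CPM against 22.3, 27.8 and 29.8 CPM (log2 difference 0.71 ± 0.13 SE, adjusted p 0.00234). SP8, a zinc finger factor, fell (log2 difference -1.36 ± 0.27 SE, adjusted p 0.00614), while its relative SP5, a direct Wnt target, had a log2 difference of 0 ± 0.12 (SE) and AXIN2, the usual reporter gene of the pathway, -0.28 ± 0.087 (SE; edgeR adjusted p 0.107). MYC (0.32 ± 0.083 SE) and the secreted inhibitor SFRP1 (-0.26 ± 0.057 SE) passed with small differences. Without Activin replicate 1 the calls of SP8 (-1.14), SFRP1 (-0.21) and MYC (0.26) were lost, and without Activin replicate 2 those of NKD1 (0.53) and MYC (0.39), the last also without any 1 CHIR or BRD+CHIR library (log2 differences 0.26 to 0.39 over all alternatives).

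PRICKLE1, a core protein of planar cell polarity, fell by more than any other gene of the polarity list. It stood at 8.23 and 6.45 CPM with Activin, 32.3, 37.6 and 39.5 CPM without and 27.2 and 28.9 CPM untreated. Both Activin libraries lay far below all 8 others, and the log2 difference from the Activin-free cells was -2.34 ± 0.15 (SE; edgeR adjusted p 7.20e-09). Of the 10 tested planar polarity genes, 1 other was called: VANGL1, which rose from 11.7, 16.8 and 21.6 CPM to 27.4 and 36.8 CPM (log2 difference 0.96 ± 0.18 SE, adjusted p 0.00302), a call lost without Activin replicate 2 (0.73). The median log2 difference of the list was -0.05.

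FGF genes and feedback genes of the ERK kinases gave 2 called higher and 2 lower of 21 tested, with a median log2 difference of -0.15. FGF8, a ligand of the streak, stood at 10.5 and 9.29 CPM with Activin and 0.534, 0.883 and 2.27 CPM without (log2 difference 3.01 ± 0.43 SE, adjusted p 2.21e-04). The receptor FGFR3 rose (10.5 and 8.95 against 3.05 to 4.49 CPM; log2 difference 1.35 ± 0.27 SE, adjusted p 0.00579). FGFR2 fell (57.6 and 49.5 against 66.3 to 79.9 CPM; log2 difference -0.47 ± 0.10 SE, adjusted p 0.00823). DUSP4, a phosphatase that acts on ERK, fell too (7.95 and 5.85 against 13.2 to 17.4 CPM; log2 difference -1.15 ± 0.20 SE, adjusted p 0.00179). Calls were lost without Activin replicate 1 for FGFR3 (1.23) and without Activin replicate 2 for FGFR2 (-0.36) and DUSP4 (-0.95).

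The pluripotency factors did not move together. Of 20 tested members of that list, 1 was called higher (NANOG) and 2 lower (SOX2 and DNMT3B), with a median log2 difference of -0.08. SOX2, which also marks neural cells, stood at 82.8 and 83.9 CPM with Activin, 171, 178 and 199 CPM without and 239 and 288 CPM untreated, a stepwise order with Activin lowest (log2 difference -1.13 ± 0.079 SE, adjusted p 1.58e-08). NANOG was at 199.7 and 202 CPM with Activin, 125, 129.7 and 134 CPM without and 92.9 and 105 CPM untreated, so the Activin libraries were highest (log2 difference 0.63 ± 0.061 SE, adjusted p 1.62e-06). Reads of NANOG and its copy NANOGP8 may be split between them, and their sum was 228 and 247 CPM with Activin against 147 to 161 CPM without. POU5F1, the third core factor, had a log2 difference of 0.09 ± 0.051 (SE; edgeR adjusted p 0.44) and did not pass. DNMT3B, a DNA methyltransferase of stem cells, was at 752 and 741 CPM with Activin, 899, 928 and 976 CPM without and 1613 and 1552 CPM untreated (log2 difference -0.32 ± 0.050 SE, adjusted p 5.86e-04).

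Of 13 tested transcription factors known from neural tissue, 0 were called higher and 6 lower (IRX2, ZIC5, SOX3, GBX2, LHX4 and SOX11), with a median log2 difference of -1.03. This list was chosen with earlier results of these data known, so its count and median describe these members and are no test of neural-type factors. IRX2, an Iroquois homeobox factor, stood at 9.55 and 12.2 CPM with Activin, 29.4, 36.4 and 41.2 CPM without and 13.6 and 17.8 CPM untreated (log2 difference -1.72 ± 0.16 SE, adjusted p 7.27e-07). GBX2, a homeobox factor of the hindbrain border, was at 4.26 and 1.38 CPM, 8.53, 10.5 and 17.3 CPM and 4.61 and 4.68 CPM (log2 difference -2.04 ± 0.38 SE, adjusted p 0.00321). For IRX2 and GBX2 the CHIR cells without Activin lay above the untreated cells, while both Activin libraries lay below both untreated ones. SOX3, a relative of SOX2, was at 8.42 and 9.21 CPM against 14.4 to 21.6 CPM (log2 difference -1.03 ± 0.19 SE, adjusted p 0.00243). Among the 7 not called, ZIC2, HESX1 and POU3F1 had log2 differences of 0.03, 0.03 and -0.01, and IRX3 had 0.37.

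LHX4, a LIM homeobox factor, was at 0.568 and 2.32 CPM against 3.96 to 9.46 CPM (log2 difference -2.08 ± 0.46 SE, adjusted p 0.0149). ZIC5 (log2 difference -0.46 ± 0.066 SE, adjusted p 2.35e-04) and SOX11 (log2 difference -0.36 ± 0.082 SE, adjusted p 0.0178) fell by less. The list is named for tissues in which these factors are known. Of the neural markers given above, SIX3 and LHX2 were at or near 0 in every library, while PAX6, SOX1 and SIX6 were not analysed here. Calls were lost without Activin replicate 1 for LHX4 (-1.42), SOX3 (-0.97) and SOX11 (-0.32), and without Activin replicate 2 for GBX2 (-1.43) and SOX11 (-0.4).

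Of 19 tested cadherins and genes of epithelial and mesenchymal state, 4 were called higher (CDH2, ITGAV, CDH11 and ITGA5) and 2 lower (ZEB2 and ESRP1), with a median log2 difference of 0.01. CDH2, N-cadherin, stood at 97 and 83.4 CPM with Activin and 48.7, 56.1 and 61.6 CPM without (log2 difference 0.69 ± 0.10 SE, adjusted p 1.58e-04). CDH11, another mesenchymal cadherin (0.77 ± 0.18 SE), and the integrins ITGAV (0.6 ± 0.11 SE) and ITGA5 (0.48 ± 0.13 SE) differed by less than 2-fold. ESRP1, a splicing regulator of epithelial cells, fell from 133, 139 and 148 CPM to 98.4 and 108 CPM (log2 difference -0.43 ± 0.073 SE, adjusted p 0.0014). ZEB2, a repressor of epithelial genes, fell from 3.97, 5.37 and 7.17 CPM to 1.8 and 1.2 CPM (log2 difference -1.87 ± 0.38 SE, adjusted p 0.00707), with untreated cells at 0.318 and 1.21 CPM. Calls lost without Activin replicate 1 were those of CDH11 (0.86), ITGA5 (0.32) and ESRP1 (-0.36), and without Activin replicate 2 those of CDH11 (0.67), ITGAV (0.39) and ZEB2 (-1.61). That of ITGA5 held under 5 of 18 alternatives (0.32 to 0.62) and was also lost without either CHIR or JNJ+CHIR replicate or BRD+CHIR replicate 2.

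In the remaining lists most tested members did not pass the test. Over all genes tested, 1.52% were called higher and 1.25% lower. Of 14 tested ephrins, semaphorins and chemokine genes (median 0.09), the ligand CXCL12 fell from 50, 54.7 and 59.9 CPM to 28.8 and 31.1 CPM (log2 difference -0.87 ± 0.11 SE, adjusted p 3.83e-05) and the guidance ligand SEMA3A rose (log2 difference 0.53 ± 0.093 SE, adjusted p 0.00183). Of 13 Notch genes (median -0.23), HES1, a repressor and Notch target, rose from 16.3, 25.2 and 29.6 CPM to 43.6 and 47.2 CPM (log2 difference 0.89 ± 0.16 SE, adjusted p 0.00185), while NRARP (log2 difference -0.62 ± 0.15 SE, adjusted p 0.024) and NOTCH1 (log2 difference -0.36 ± 0.091 SE, adjusted p 0.033) fell. The NOTCH1 call held under 7 and the NRARP call under 10 of 18 alternatives. Without Activin replicate 1, the calls of SEMA3A (0.5), NRARP (-0.59) and NOTCH1 (-0.46) were lost. Those of NRARP (-0.64) and NOTCH1 (-0.27) were also lost without Activin replicate 2, CHIR replicate 1 or BRD+CHIR replicate 2, and NOTCH1 without CHIR replicate 2 or BRD+CHIR replicate 1.

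None of the 5 extraembryonic genes tested (median 0.08) and none of the 4 mesoderm subtype genes (median -0.44) passed edgeR's test, and GATA3, at 1.23 and 1.2 CPM against 0 to 0.271 CPM, stayed uncalled (adjusted p 0.103). Of 20 hypoxia and glycolysis genes (median -0.07), 0 were called higher and 3 lower. The hexokinase HK2 was at 63.1 and 70 CPM with Activin, 101 and 93.4 CPM with CHIR, 86.9 and 98 CPM with BRD+CHIR and 128 and 150.5 CPM with JNJ+CHIR (log2 difference -0.72 ± 0.16 SE, adjusted p 0.0129). The JNJ+CHIR libraries were the highest of the pool for HK2 and, at 456 and 437 CPM, for the glucose transporter SLC2A1 (log2 difference -0.48 ± 0.10 SE, adjusted p 0.00626), and VEGFA was called with -0.4 ± 0.085 (SE). Without 1 Activin library these calls were lost for HK2 (replicate 1, -0.64; replicate 2, -0.79), SLC2A1 (replicate 2, -0.38) and VEGFA (replicate 1, -0.29).

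Several of the largest rises belonged to no list. FILIP1L, a protein that binds filamin, stood at 14.9 and 9.89 CPM with Activin, 0.62, 1.3 and 1.75 CPM without and 0.238 and 0.433 CPM untreated (log2 difference 3.34 ± 0.36 SE, adjusted p 6.72e-06). CBLN1, a secreted cerebellin, was at 15.5 and 15.4 CPM against 1.83, 2.33 and 4.27 CPM (log2 difference 2.55 ± 0.28 SE, adjusted p 9.31e-06). PDE4B, a phosphodiesterase that degrades cyclic AMP, was at 36.8 and 34.1 CPM against 8.81, 9.17 and 12.8 CPM (log2 difference 1.82 ± 0.16 SE, adjusted p 5.18e-07). Less even between the Activin libraries was CDH6, a cadherin, at 3.78 and 10.6 CPM against 0.457, 1.63 and 3.13 CPM (log2 difference 2.03 ± 0.49 SE, adjusted p 0.0265). NPFFR2, a neuropeptide receptor, was at 5.3 and 5.08 CPM against 0.795, 1.14 and 2.17 CPM (log2 difference 1.99 ± 0.47 SE, adjusted p 0.0217). The CDH6 call was lost without Activin replicate 2 (1.1), CHIR replicate 2 (1.97) or BRD+CHIR replicate 2 (2), and that of NPFFR2 without either Activin replicate (1.96 and 2.02).

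Among the largest falls outside the lists, LRIG1, a membrane protein that restrains EGF receptors, stood at 40.8 and 27.8 CPM with Activin, 86.7, 88.4 and 92.6 CPM without and 82.5 and 77.9 CPM untreated (log2 difference -1.38 ± 0.11 SE, adjusted p 1.87e-07). CHST11, an enzyme that sulphates chondroitin, was at 3.31 and 1.98 CPM against 6.59, 8.38 and 11.5 CPM (log2 difference -1.75 ± 0.31 SE, adjusted p 0.00206), a call lost without Activin replicate 2 (-1.42). STEAP1B (log2 difference -1.41 ± 0.36 SE, adjusted p 0.0372) and the metalloprotease ADAMTS8 (log2 difference -1.34 ± 0.35 SE, adjusted p 0.045) held their calls under 11 and 6 of 18 alternatives. Both were lost without either Activin replicate (STEAP1B -1.33 and -1.49; ADAMTS8 -1.17 and -1.55) and without either CHIR replicate or JNJ+CHIR replicate 2, and that of ADAMTS8 also without BRD+CHIR replicate 2 or JNJ+CHIR replicate 1 (log2 differences -1.66 to -0.81 and -1.55 to -1.17 over all alternatives).

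The naming rule also picked 3 entries whose reads are shared with another gene, and their falls are uncertain. SMIM11B was at 0 and 0.086 CPM with Activin and 0.852 to 15.2 CPM without, but its copy SMIM11A ran the other way, and the sum of both was 19.8 and 14.9 CPM with Activin and 10.2 to 15.9 CPM without. The read-through TGIF2-RAB5IF was at 1.7 and 1.03 CPM with Activin and 2.67 to 9.54 CPM without, while its sum with TGIF2 and RAB5IF was 108 and 108 CPM against 108 to 131 CPM. The read-through PPAN-P2RY11 was at 1.7 and 2.67 CPM against 4.27 to 9 CPM, and its sum with PPAN was 61.0 and 60.5 CPM against 59.5 to 79.3 CPM. In each case the summed groups overlapped or nearly touched, so no change of these genes is reported.

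Few genes differed among the 3 Activin-free arms of the pool. Of 14460 genes tested for any difference among CHIR, BRD+CHIR and JNJ+CHIR, 5 passed (0.0346%): KDM3A, DDIT4, BNIP3, SMIM11A and SMIM11B. The first 3 are induced by low oxygen or stress and were highest in JNJ+CHIR, BNIP3 at 156 and 165 CPM against 105 and 118 CPM in CHIR (edgeR adjusted p 0.0045). None of these 3 passed between Activin and the pool. With any 1 of the 6 libraries omitted the count was higher, at 8 to 47.

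Set against each arm alone, with 2 libraries each, MIXL1 had log2 differences of 3.93 from CHIR, 4.07 from BRD+CHIR and 4.09 from JNJ+CHIR. For PRICKLE1 the 3 values were -2.25, -2.38 and -2.39, and for SOX2 -1.24, -1.04 and -1.1. The 3 comparisons share the Activin libraries and stand here side by side only. Of the 222 higher genes, 68 were called against every arm separately and 86 against none. Of the 183 lower genes, 51 were called against every arm and 70 against none.

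**Figure D4:**
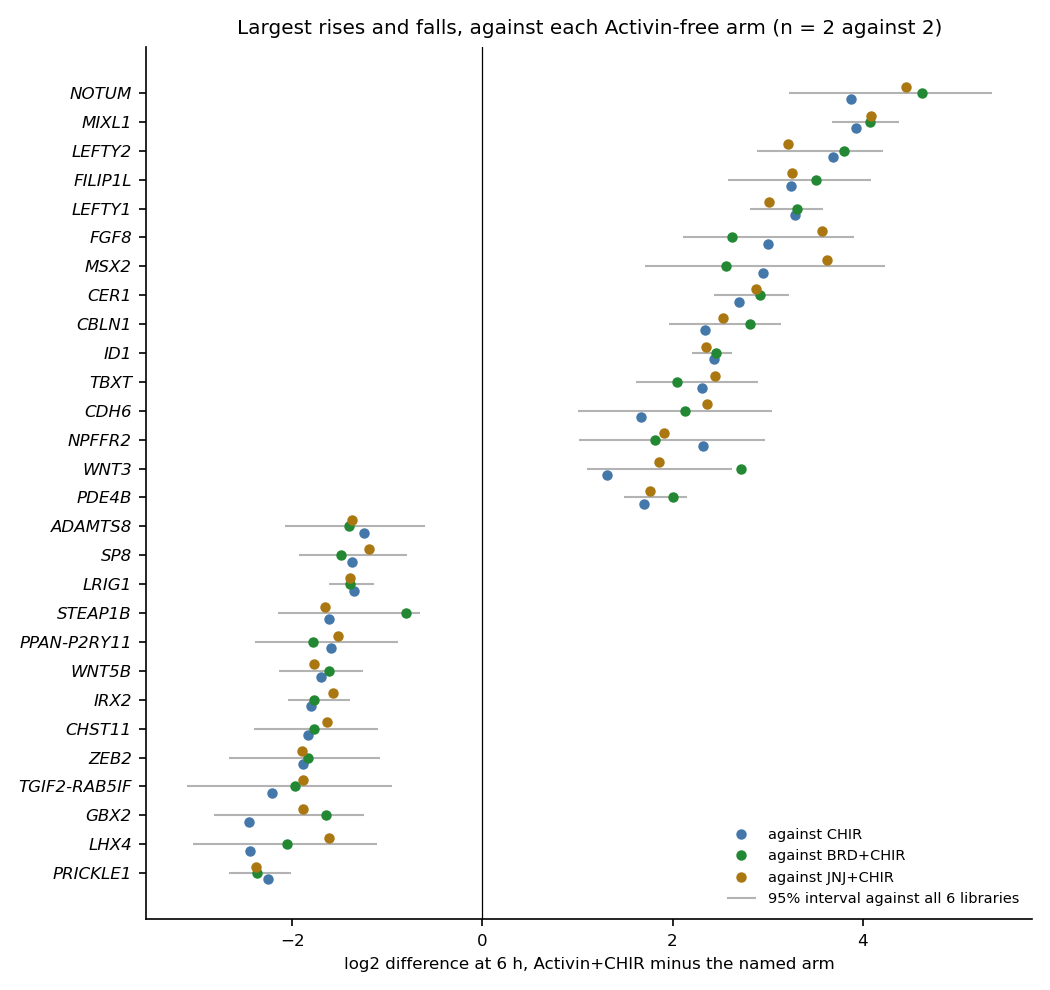
Log2 differences at 6 h of 28 of the genes with the largest rises and falls (SMIM11B left out), with 1 point for Activin against each of CHIR, BRD+CHIR and JNJ+CHIR and a grey 95% interval for Activin against all 6 libraries. For MIXL1, CER1, ID1, PRICKLE1 and LRIG1 the 3 points lie close together, and for genes of low level such as MSX2 and CDH6 they lie further apart.

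The untreated libraries place these differences beside those of CHIR itself. CHIR alone against untreated cells gave log2 differences of 2.56 for NODAL, 2.86 for EOMES, 2.24 for TBXT and 2.44 for WNT3, and Activin with CHIR against untreated cells gave 3.37, 4.4, 4.55 and 3.76. For MIXL1 the values were 1.17 and 5.1, for LEFTY1 -0.68 and 2.6, and for CER1 0.95 and 3.64. A different order appeared where CHIR alone raised a gene and Activin cells stood lower: IRX2 had 1.28 for CHIR alone and -0.52 for Activin with CHIR, WNT5B 2.2 and 0.5, and FST 3.1 and 2.47. PRICKLE1 had 0.32 and -1.94, and SOX2 -0.43 and -1.66. These comparisons share the untreated libraries with each other and the CHIR or Activin libraries with the main one.

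Another set of libraries, taken at 24 h from unsorted cells of the same 4 arms, shows the state of these genes later. At 24 h, 376 of 15319 genes tested (2.45%) were called higher and 365 (2.38%) lower with Activin. The split was 570 to 831 with DESeq2 and 516 to 306 with limma-voom. Time goes with library series, so only differences within a time are compared. Of the 221 higher genes tested again, 47 (21.3%) were called higher at 24 h, 22 (9.95%) were called lower and 152 were not called. Of the 182 lower genes, 44 (24.2%) were called lower again, 8 (4.40%) higher and 130 not. Across 389 genes called at 6 h with at least 5 CPM, log2 differences at 6 h and 24 h had a Pearson r of 0.31 and a Spearman rho of 0.34, a description across genes, which share their libraries and are not independent replicates. At 24 h replicates were less even: 112 to 298 genes per arm stood at 0 in 1 replicate with at least 50 counts in the other, against 11 to 17 at 6 h. The libraries of these arms held 13 to 29.6 M counts at 24 h and 10.8 to 17.2 M at 6 h. A cut of 50 counts is therefore not the same level in CPM at both times. Without Activin replicate 1 the 24 h comparison gave 420 calls in place of 741, and without Activin replicate 2 it gave 358.

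**Figure D5:**
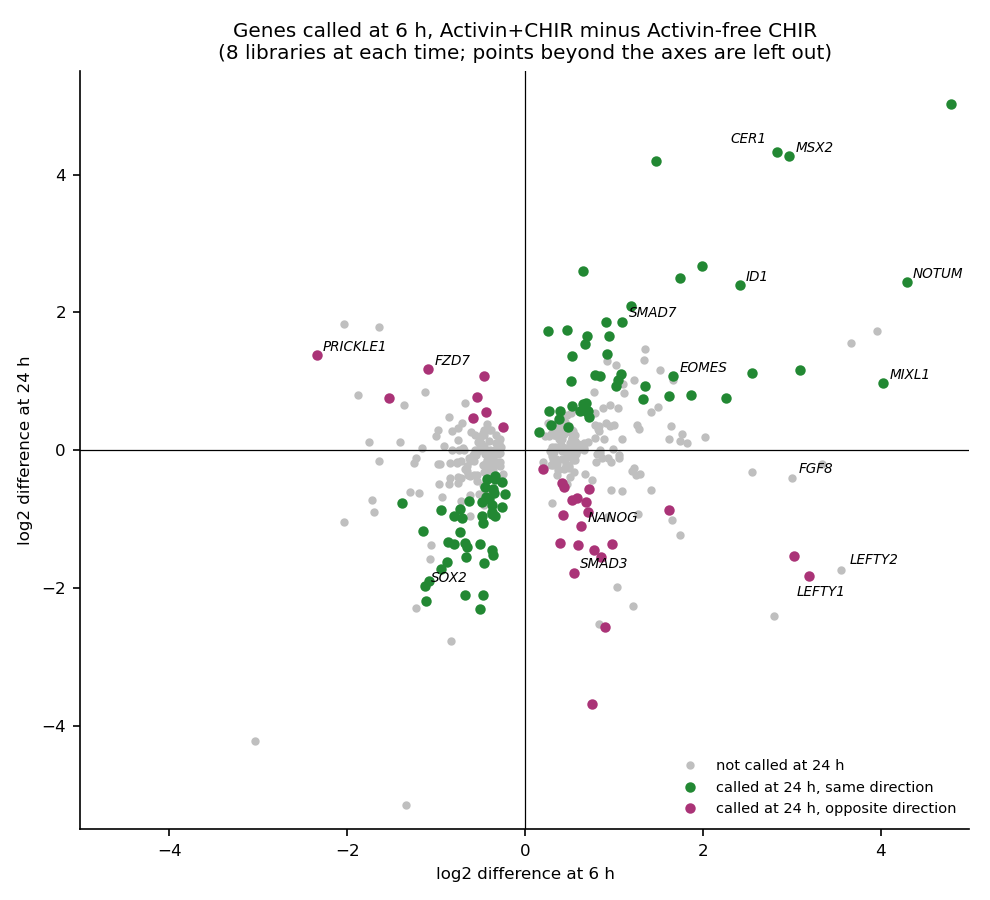
Log2 differences, Activin minus Activin-free, of the genes called at 6 h, with 6 h on the horizontal and 24 h on the vertical axis, 1 point per gene, and 8 genes beyond the axes not shown. CER1 and ID1 lie above 0 at both times, SOX2 below 0 at both, LEFTY1 above 0 at 6 h and below at 24 h, and PRICKLE1 the reverse.

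CER1 and ID1 were higher with Activin at both times. CER1 reached 1188 and 1361 CPM with Activin at 24 h against 30.7 to 104 CPM without, a log2 difference of 4.33 (edgeR adjusted p 1.61e-10). ID1 stood at 43.9 and 63.7 CPM against 4.9 to 19.8 CPM, a log2 difference of 2.39 (adjusted p 2.36e-05). SMAD7 (1.87; adjusted p 3.03e-06) and EOMES (1.07; 4.72e-10) were higher too. SOX2 was lower again, at 6.47 and 9.13 CPM against 28.3 to 36.7 CPM (-1.97; adjusted p 1.25e-05).

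MIXL1 stayed higher with Activin at 24 h, by a smaller log2 difference than at 6 h. It was at 1062 and 1090.1 CPM with Activin and 482 to 641 CPM without, a log2 difference of 0.97 (edgeR adjusted p 1.49e-08), with no overlap. Other genes were no longer called or were called on the other side. NODAL stood at 179 and 215 CPM against 179 to 210.1 CPM, with overlapping groups and a log2 difference of 0.02 (edgeR adjusted p 0.965). LEFTY1 was lower with Activin, at 6.88 and 9.45 CPM against 23 to 36.7 CPM (-1.82; adjusted p 8.24e-05). NANOG was at 91.8 and 74.6 CPM against 145 to 209 CPM (-1.1; 4.22e-06) and SMAD3 at 10.4 and 6.59 CPM against 24 to 38.1 CPM (-1.78; 1.33e-04), both lower. PRICKLE1 was higher, at 19.8 and 27.2 CPM against 4.38 to 15.1 CPM (1.38; 0.0346), as was FZD7 (239 and 268 against 93.7 to 128 CPM; 1.18).

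The change between times was tested as an interaction over the 16 libraries, in which 456 genes (2.91%) passed. That count was 253 without Activin replicate 1 of 6 h, 297 without Activin replicate 2 of 6 h and 244 with limma-voom. Among the 405 genes outside the range and called at 6 h, 118 differed between times. These genes were chosen for their 6 h differences and the interaction uses the same 6 h libraries, which favours a smaller difference at 24 h, so nothing is read from this count against the share over all genes. At 24 h, 25 of the 118 were called in the same direction, 30 in the opposite one and 63 not at all. From 6 h to 24 h the log2 difference moved by -5.01 for LEFTY1 (adjusted p 1.72e-09), by -3.05 for MIXL1 (adjusted p 5.23e-10) and by -1.72 for NANOG (adjusted p 6.45e-08), while it moved by 3.73 for PRICKLE1 (adjusted p 3.65e-05).

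At 72 h sorted endoderm made with Activin was set against sorted endoderm made with BRD or JNJ in its place, 2 libraries against 4, at 4.57 to 7.59 M counts. The contrast differs from the earlier ones by the sort and by 3 days of treatment. Of 13762 genes tested, 1849 (13.4%) were called higher and 1799 (13.1%) lower, 3648 in all, and without Activin replicate 1 or 2 the total was 2036 or 2252. Of 208 genes higher at 6 h and tested at 72 h, 79 were called higher and 44 lower, and of 173 lower genes, 48 were called lower and 38 higher. LEFTY1 was at 196 and 152 CPM with Activin against 1.9 to 5.12 CPM, LEFTY2 at 494 and 327 CPM against 0.173 to 1.25 CPM, CER1 at 4637 and 4034 CPM against 55.2 to 129 CPM and NODAL at 235 and 188 CPM against 15 to 24.3 CPM. In none of these 4 genes did the groups overlap, and the log2 difference of LEFTY1 was 5.63 (edgeR adjusted p 4.69e-09). ID1 was on the other side, at 25 and 23.9 CPM with Activin against 111 to 147 CPM (-2.4; adjusted p 9.76e-08).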

How the data were processed

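RNA of H1 cells was measured by bulk sequencing from a stranded total-RNA kit, per the labels' protocols. The authors deposited expected counts per gene for 16103 genes in 30 libraries. The submitters' processing notes list Salmon 1.4.0, limma 3.48.1, edgeR 3.34.0 and the build GRCh38 without roles. 0 columns were left unmapped. Groups came from the labels.

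After rounding, genes were compared by edgeR 4.0.16 under R 4.3.3 (low counts removed with filterByExpr, scaling by TMM, quasi-likelihood F-test, 2-group model, two-sided, Benjamini-Hochberg adjusted p under 0.05). A standard error is the log2 difference divided by the root of F. The 6 h fit had 6 residual degrees of freedom and a median log2 difference of -0.01. The steps were tested on simulated counts of 2 against 6 libraries. There, 62% of 2-fold and 80% of 4-fold changes were recovered, and 8.39% of the calls were false at the threshold of 0.05. Alternatives were DESeq2 1.42.0, limma 3.58.1 (voom), other scaling and filters, a replicate block, single control arms and omission of each library. Figures and tables used Python 3.11.15.

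The members and the 17 gene lists were chosen with earlier results of these data known. Named were the 15 largest rises and 15 largest falls among called genes outside the range with 5 CPM or more on average where higher, 4 markers, up to 6 called members per list (or 2 uncalled where none was called) and the genes at the edge of the range, 78 in all beside 1 not reported here. Uncalled members of other lists, genes with motif matches, genes that differ among the arms and partners of shared reads were chosen after their values were seen. Gene positions are from GENCODE release 29. BRD alone at 6 h, of another library series, and the single-cell samples were not used.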

Additional observations from a re-analysis of the deposited data

Results flagged for a closer look

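For 32 of the 78 named genes the Activin difference at 24 h differed from that at 6 h by edgeR's interaction test, and the log2 difference at 24 h minus that at 6 h is given for each. Most of these genes were named for their 6 h differences, and the test uses the same 6 h libraries, so the count of them describes the named genes and supports nothing further. Among ligands, inhibitors and signal genes of the Nodal pathway it was -5.01 for LEFTY1, -5.28 for LEFTY2, -0.95 for NODAL, -1.53 for GDF3, -0.83 for FST, -2.31 for SMAD3 and -1.14 for PMEPA1. Streak factors gave -3.05 for MIXL1, -1.49 for TBXT and -0.58 for EOMES. In the BMP and FGF lists it was -1.6 for ID2, -0.7 for BMPR1A, -3.39 for FGF8 and 1.19 for DUSP4. Wnt and polarity genes gave 2.28 for FZD7, -0.88 for FZD5, -0.56 for SFRP1, 2.03 for SP8 and 3.73 for PRICKLE1. Among pluripotency and neural-type genes it was -0.84 for SOX2, -1.72 for NANOG, 0.44 for DNMT3B, 0.46 for ZIC5, -6.96 for SOX3 and -5.72 for LHX4. SOX3 and LHX4 were at 0 in both Activin libraries at 24 h, so their fitted values depend on the prior count and are no measured fold. Genes of adhesion and guidance gave 2.69 for ZEB2, 1.27 for ITGA5 and -1.25 for SEMA3A, and other named genes -3.53 for FILIP1L, -2.85 for CBLN1, 1.88 for CHST11 and 8.08 for SMIM11B, whose reads are shared with SMIM11A.

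A single library stood apart from the other 5 of the Activin-free pool in 2 named genes. LEFTY1 was at 5.15 CPM in JNJ+CHIR replicate 2, with the next library at 3.92 CPM, and SFRP1 was at 375 CPM in CHIR replicate 2, with the next at 394 CPM. Chance alone marks about 1 in 20 groups in this way, and both genes passed the test between Activin and the pool with these libraries included.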

How the results depend on the processing

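The contrast at 6 h rests on 2 Activin libraries, and the libraries held 10.8 to 17.2 M counts. Which of the number of libraries and their depth limits the calls more was not tested. At 6 h, 406 genes were called, and DESeq2 called 555 (400 shared), limma-voom 343 (324 shared), edgeR with RLE scaling 398, without a filter 398, with at least 5 CPM 434 and with group means of the 4 arms 346. Against 1 arm alone the count was 191 for CHIR, 203 for BRD+CHIR and 186 for JNJ+CHIR, comparisons of 2 with 2 libraries. Omitting 1 library gave 166 to 490 calls. Of 72 named genes with a call, 31 kept it under all 18 alternatives, 28 lost it without Activin replicate 1, 27 without Activin replicate 2, and 0 reversed. BLOC1S5-TXNDC5 was uncalled but passed against BRD+CHIR alone and without JNJ+CHIR replicate 1, and its reads may be shared with TXNDC5. The 2198 genes outside the range became 2176 without TMM scaling, 1500 with the untreated libraries added to the range, and 2527 to 2863 with 1 Activin-free library omitted. The count of 5 genes that differ among the Activin-free arms ran from 8 to 47 on omission of a library, an alternative added after the data were seen.

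At 24 h the 741 calls became 1401 with DESeq2 and 358 to 761 on omission of a library. The 456 genes whose difference changed between times became 244 with limma-voom, 662 with DESeq2 and 253 to 511 on omission. At 72 h the 3648 calls became 2036 to 3771 on omission. The causes of these shifts were not tested. Same-numbered libraries showed no shared shift across genes. Over 6 pairs of groups, the correlation of deviations ran from -0.035 to 0.022 at 6 h and from -0.020 to 0.029 at 24 h. Whether same-numbered libraries came from a common culture or day cannot be told from these values. With the replicate number as a block 400 genes were called at 6 h, 707 at 24 h and, added after the data were seen, 3781 at 72 h.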

Other observations

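A few genes outside the fixed lists, chosen here after their values were seen, were called higher with Activin than without it at 6 h. HAS2, which makes hyaluronan, stood at 62.7 and 56.2 CPM with Activin, 18.3 to 25.6 CPM without and 4.21 and 5.8 CPM untreated (log2 difference 1.47 ± 0.13 SE, adjusted p 3.14e-07). Its log2 difference at 24 h was 4.21, a change of 2.74 between times (edgeR adjusted p 7.50e-05). The cardiac actin ACTC1 was at 48.6 and 42.4 CPM, 14.3 to 17.5 CPM and 24.5 and 29.4 CPM in the same order (log2 difference 1.5 ± 0.12 SE, adjusted p 2.40e-07), and the caveolar protein CAV1 at 13.1 and 11.4 CPM, 1.98 to 5.8 CPM and 5.64 and 3.29 CPM (log2 difference 1.66 ± 0.35 SE, adjusted p 0.00953). With smaller log2 differences, the actin-binding proteins TAGLN (0.61 ± 0.077 SE) and CALD1 (0.64 ± 0.059 SE) were near the untreated level with Activin and lower in the CHIR cells without it. TAGLN was at 384 and 329 CPM with Activin, 199.6 to 255 CPM without and 348 and 319.9 CPM untreated, and CALD1 at 690.1 and 735 CPM, 431 to 496 CPM and 701 and 662 CPM. FURIN, a protease that processes Nodal and other precursors, was higher with Activin by 0.71 ± 0.15 (SE) on the log2 scale, with untreated levels of 22.8 and 16.6 CPM and Activin levels of 26 and 26 CPM. SERPINB9, an inhibitor of granzyme B, was at 134 and 133 CPM with Activin, 48.3 to 58.7 CPM without and 40.5 and 38.8 CPM untreated (log2 difference 1.33 ± 0.082 SE, adjusted p 2.59e-09).

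Genes called lower with Activin than without, chosen in the same way, included, by log2 difference, SOX9 (-1.23 ± 0.31 SE), the forkhead factor FOXB1 (-1.08 ± 0.14 SE), MYCN (-0.76 ± 0.10 SE), TCF7L2, a nuclear partner of Wnt signals (-0.68 ± 0.083 SE), the laminin receptor subunit ITGA6 (-0.68 ± 0.078 SE), RGMA, a BMP co-receptor (-1.29 ± 0.14 SE), the Hedgehog effector GLI2 (-0.85 ± 0.13 SE) and the chromatin remodeller SMARCA2 (-1.11 ± 0.11 SE). The call of SOX9 was nearer the threshold (edgeR adjusted p 0.0332), at 3.69 and 2.15 CPM with Activin and 5.96 to 8.29 CPM without. SMARCA2 was at 32.4 and 26.4 CPM with Activin, 55.4 to 68 CPM without and 31 and 30.5 CPM untreated, and FOXB1 at 21 and 24.7 CPM, 38.1 to 52.8 CPM and 8.11 and 8.31 CPM, so for both the CHIR cells without Activin were the highest of the 3 states. At 24 h, ITGA6 (-2.11), SMARCA2 (-2.19), TCF7L2 (-1.34) and FOXB1 (-1.89) were called lower again. Genes called higher at 6 h and lower at 24 h included SEMA3C (0.75 at 6 h, -3.68 at 24 h) and RHOB (0.98 and -1.37). The 6 h call of SEMA3C had an edgeR adjusted p of 0.0332. How the calls of genes chosen in this way depend on single libraries is not given here. ERVH48-1, a retroviral envelope gene also called suppressyn, had log2 differences of 1.62 at 6 h, -0.87 at 24 h and 3.49 at 72 h, each past the threshold.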
